A study of Danio rerio with 6 samples.

Results

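The Krüppel-like factors are transcription factors with zinc fingers at their carboxyl end, which bind CACCC boxes and other GC-rich sites in promoters. Family members differ in the protein regions outside the fingers, through which some recruit activating cofactors and others recruit repressors such as CtBP or Sin3A. In zebrafish, Klf2a and Klf17 are known from early embryos, in outer epithelium, blood, vessels or hatching gland. Here the RNA of 9 members, klf2a, klf2b, klf3, klf4, klf6a, klf11a, klf12b, klf15 and klf17, was followed in zebrafish embryos injected with a morpholino against nanog-like. The members themselves were chosen with earlier results of these data known. Their targets were taken by gene name, by an older symbol, by RefSeq accession or, where the name was blank, by map marker, and not by any measured value. This gave 8 targets of 7 genes among 38489 targets on the array, of which 17888 could be named as 12486 genes. No target was found for klf2b and klf12b, the other 2 members, which are not analysed here.

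Total RNA came from zebrafish at the sphere stage, when the embryo is a blastula whose own genome has recently become active. The control group, control-MO, had received a control morpholino and is labelled normal. The other group, nanog-like-MO1, had received a single morpholino against nanog-like, now named nanog, a maternally supplied homeobox factor, and is labelled with a gastrulation defect. Both were raised in E3 fish water at 28 °C, and each group had 3 arrays of 1 colour (Cy3). The series design speaks of separate embryos and the sample labels of separate cultures. Strain, morpholino dose, the number of embryos behind an array and whether MO1 acts on translation or splicing are not given in the sources used here. Levels below are normalized intensities on a log2 scale, differences are morpholino minus control on that scale, and a target is called changed where limma's p, adjusted over all 38489 targets by Benjamini-Hochberg, lies under 0.05. Levels of different targets are not set against each other, since probes differ in brightness.

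All arrays resembled each other closely, with correlations of 0.9753 to 0.9887 over targets, raw medians of 408 to 529 and 384758 to 385461 of 387190 probes kept. The array numbers in the labels fall into separate ranges: the control arrays share theirs with morpholino array 3, while morpholino arrays 1 and 2 each lie in another. Within the shared range there is thus 1 morpholino array to set against the controls, and that value is given beside the results that need it. RNA of nanog itself read 14.90, 14.98 and 14.85 in the control arrays and 14.93, 14.93 and 14.82 in the morpholino arrays. The groups overlapped, with a difference of -0.02 ± 0.10 (SE, n = 3 per group, limma, adjusted p = 0.983). A morpholino does not have to lower the RNA of its gene, so this level does not check the labels.

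Of the 8 Klf targets, 1 rose in the morpholino arrays, that of klf15, by 4.29-fold, none fell, and 7 did not pass the test. Across all targets 0.257% were called higher and 0.39% lower. Before adjustment, limma gave a p under 0.05 to 6 of the 8 Klf targets, 4 of them higher and 2 lower, where the share over all targets was 10.3%. For the same 6 the control and morpholino arrays did not overlap, which held for 15.3% of all targets, 7.36% on the higher and 7.97% on the lower side. Since the members were chosen with earlier results of these data known, these counts are a description and not a test of the family. The 4 with higher morpholino arrays were the target of klf15, both targets assigned to klf11a and that of klf6a. The 2 with lower ones were those of klf2a and klf17. One of the klf11a targets was assigned by a clone marker only. The median difference was 0.29 over the 8 Klf targets and -0.01 over all targets. In whole embryos, fewer cells of a type and less RNA per cell cannot be told apart.

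**Figure D1:**
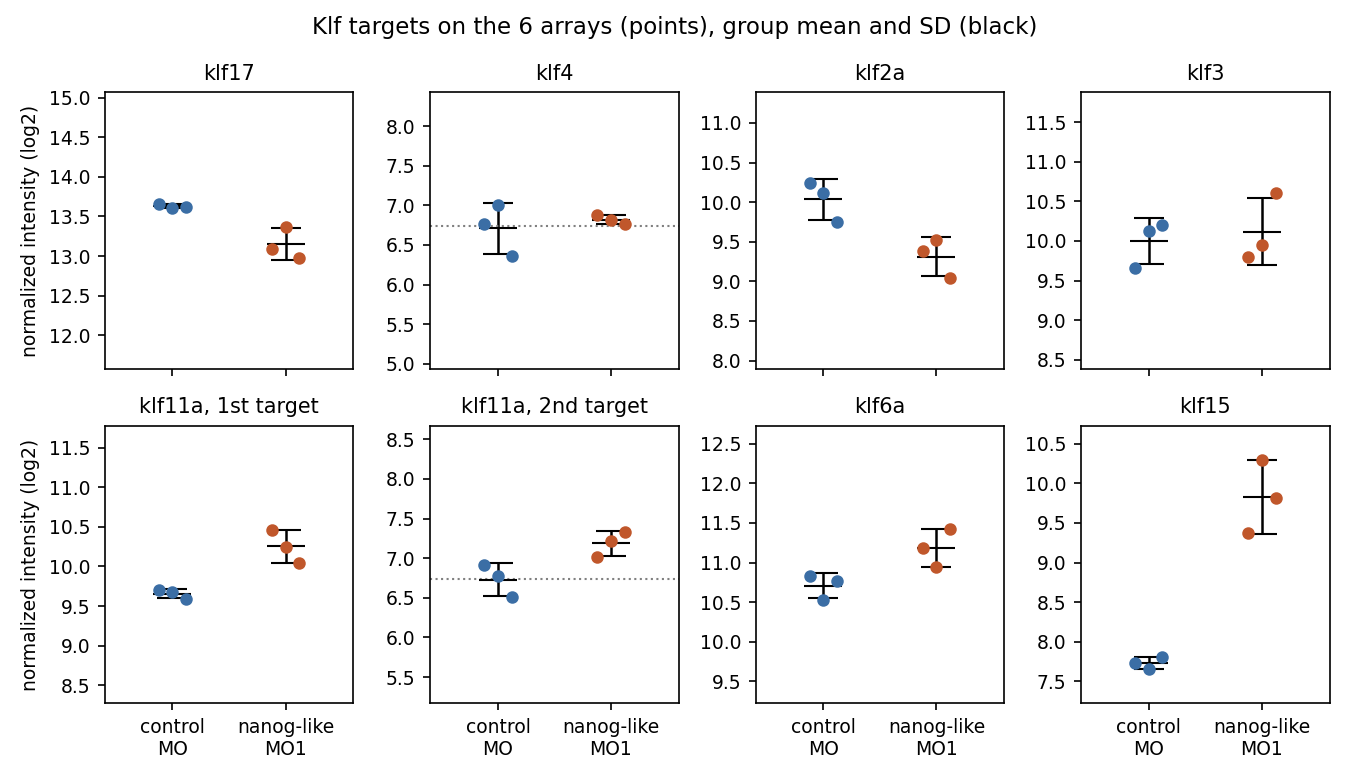
Normalized intensity (log2, vertical axis) of the 8 Klf targets in the 3 control-MO arrays (blue) and the 3 nanog-like-MO1 arrays (orange), with group mean and SD in black. Every panel spans the same height on its own range, and a dotted line marks the 25th percentile of target means, 6.74. The klf15 panel shows the widest gap, while the points of klf3 and klf4 overlap between groups.

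Klf15 was the member with the largest difference. In mammals it is known as a regulator of glucose and amino acid metabolism in liver and muscle and as a gene induced by glucocorticoids. Its target (OTTDART00000028112, design name zgc:111859, 12 probes) lies on chromosome 23 from 29396128 to 29404353 in assembly Zv7, with cmtr1 and fbxo25 as neighbours both there and in the current gene table. The coefficient of variation of its probes was 0.806 to 1.286. Control arrays read 7.73, 7.65 and 7.81, and morpholino arrays read 9.37, 10.30 and 9.82. Every morpholino array thus lay above every control array, and the lowest morpholino array was the first. Before normalization the same target read 258, 232 and 259 intensity units in the control arrays against 736, 1229 and 1066 in the morpholino arrays. The group means were 7.73 ± 0.08 and 9.83 ± 0.47 (SD, n = 3 each).

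The klf15 difference was 2.10 ± 0.23 (SE), with a 95% interval of 1.54 to 2.66 (limma, adjusted p = 0.018). It was larger than the spread within either group. The authors' own RMA values, a second summary of the same arrays, read 39.1, 35 and 41.6 in the control arrays and 137.5, 314.6 and 222.6 in the morpholino arrays, a log2 difference of 2.47 (limma on the authors' deposited table, adjusted p = 0.00882). In the shared array range, morpholino array 3 stood 2.09 above the control mean. A fit with the array range as a block rests on that 1 morpholino array and gave 2.09, so it cannot decide the call. The call was lost without control array 1 (limma, adjusted p = 0.071), control array 2 (0.0826), control array 3 (0.0941) or morpholino array 3 (0.0951). The klf15 difference lay between 1.86 and 2.33 over the 6 arrays left out in turn. Fits with an array left out called 35 to 66 of all targets higher, against 99 with all arrays. No other target of the array lay within 100 kb of the klf15 target. Its named neighbours, sought within 300 kb, lay further away.

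**Figure D2:**
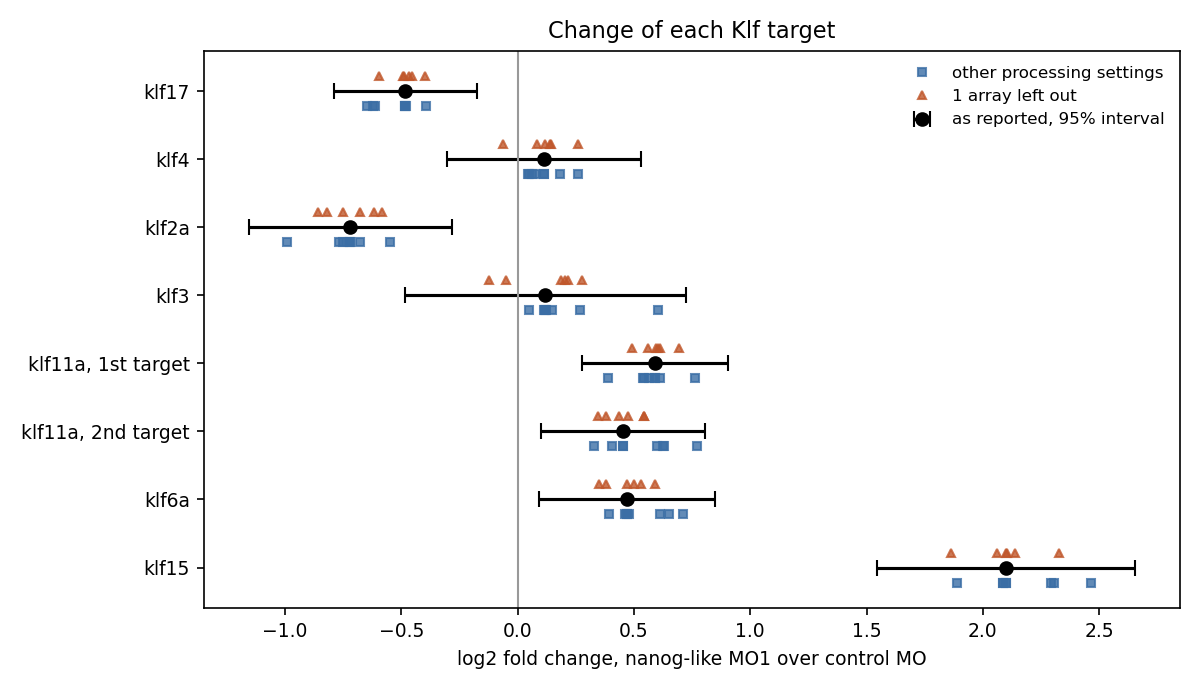
Log2 fold change of each Klf target, nanog-like MO1 over control MO (horizontal axis), as reported with its 95% interval (black), under the 8 other processing settings (blue squares) and with 1 of the 6 arrays left out (orange triangles). The target of klf15 stays at 1.86 or above throughout, while klf3 and klf4 have marks on both sides of 0.

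Klf17 and klf4 are the members whose names have been exchanged most. Zebrafish klf17, called biklf or klf4b in older work, is known for the hatching gland and for primitive blood, and klf4 takes its name from the mammalian reprogramming factor. The design calls OTTDART00000024598 (12 probes, chromosome 2, 22323453 to 22325619 in Zv7) klf4. That symbol has been used for both genes, and the chromosome, with slc6a9, ccdc24 and zgc:113531 as neighbours, makes it the target of klf17. Its control arrays read 13.66, 13.61 and 13.62 and its morpholino arrays 13.09, 13.37 and 12.98. The control arrays lay close together, and all morpholino arrays were below them.

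For klf17 the difference was -0.48 ± 0.13 (SE), with a 95% interval of -0.79 to -0.18, or 1.40-fold lower. It did not pass (limma, adjusted p = 0.258), although the group means, 13.63 ± 0.03 and 13.15 ± 0.20 (SD, n = 3 each), stood further apart than the arrays within a group. Morpholino array 3 was 0.65 below the controls of its range, and the authors' table gave -0.62 (adjusted p = 0.233). In every setting tried, arrays left out in turn included, the sign stayed negative. The 12 other targets within 100 kb differed by -0.22 to 0.35, with none called.

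The target assigned to klf4 is TC258577 (12 probes), which has no name and no position in Zv7. One of its map markers is klf4, listed on linkage group 2, and another lies on linkage group 21, where the gene table has klf4; its human match is KLF4. The same klf4 marker is also listed for the targets of klf17 and klf2a, so it is not specific to klf4. The assignment therefore rests on a marker alone. Values were 6.77, 7.0 and 6.36 in the control arrays and 6.88, 6.81 and 6.77 in the morpholino arrays. The groups overlapped, and the control mean, 6.71, lay below the 25th percentile of all targets, so the signal was dim. The difference was 0.11 ± 0.17 (SE), with a 95% interval of -0.30 to 0.53 (limma, adjusted p = 0.904).

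Klf2a is best known in zebrafish as a gene of the endothelium that responds to blood flow, and its close relatives in mammals keep lymphocytes and vessels quiescent. Its target (OTTDART00000014038) covers chromosome 22 from 10027126 to 10029824 in Zv7. Only 3 probes stand behind it, and their coefficient of variation was 0.902 to 1.297. Control arrays read 10.24, 10.11 and 9.75, against 9.38, 9.52 and 9.04 in the morpholino arrays. No morpholino array reached the lowest control array. The difference was -0.72 ± 0.18 (SE), with a 95% interval of -1.16 to -0.28, or 1.65-fold lower, and it did not pass (limma, adjusted p = 0.239). Left out in turn, the arrays gave -0.86 to -0.58. In the shared range the third morpholino array was 0.99 below the control mean.

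Klf3 and Klf11 are known in mammals as repressors, Klf3 through CtBP and Klf11 through Sin3A. The klf3 target (OTTDART00000023814, 12 probes, chromosome 1, 9973986 to 9994903 in Zv7) carries the name klf12 in the design, an older symbol of both klf3 and klf12a, and its human match in the design is KLF12. Both genes lie on chromosome 1, so it was assigned to klf3 by its neighbours pgm2, slc25a51a and tbc1d1 alone, against the human match. It read 9.66, 10.13 and 10.20 in the control arrays and 9.80, 9.95 and 10.60 in the morpholino arrays. Both the highest and the second lowest value belonged to the morpholino group. The klf3 difference was 0.12 ± 0.25 (SE), with a 95% interval of -0.49 to 0.72 (limma, adjusted p = 0.937), and its sign turned without control array 1 (-0.05) or morpholino array 3 (-0.12). In the shared range morpholino array 3 stood 0.60 above the control mean of klf3.

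For klf11a, a target under its own name (OTTDART00000006439, 12 probes) lies on chromosome 20 from 33182651 to 33186639 in Zv7. In the control arrays it read 9.70, 9.68 and 9.59, and in the morpholino arrays 10.46, 10.25 and 10.05. The groups did not overlap, and the control arrays varied less (SD 0.06) than the morpholino arrays (SD 0.20). The difference was 0.59 ± 0.13 (SE), with a 95% interval of 0.28 to 0.91, or 1.51-fold higher, which did not pass (limma, adjusted p = 0.174). Within the shared range it was 0.39. A second target (TC265507, chromosome 20, 38004470 to 38005150) was assigned to klf11a by a clone marker only and lies apart from the first. It shares 0 neighbours with klf11a in the current gene table, where the first target shares 7. Its values were 6.91, 6.77 and 6.51 in the control arrays and 7.01, 7.22 and 7.33 in the morpholino arrays, a difference of 0.45 ± 0.15 (SE, adjusted p = 0.352), and 0.77 in the authors' deposited table. Both targets thus had higher morpholino arrays without passing. The second was dim, with a control mean of 6.73, and its gene is not settled.

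Klf6 is known in mammals as an early response factor and a tumour suppressor, and in zebrafish for the growth of the liver. The klf6a target (ZV700S00003337, 12 probes), named through map markers on its own chromosome, covers chromosome 24 from 3395388 to 3402792 in Zv7. A marker called klf6 is among them, but the target shares 0 neighbours with klf6a in the current gene table. The assignment was made by markers, and the human match of the target in the design is COPEB, an older symbol of KLF6. Control arrays read 10.83, 10.53 and 10.77, and morpholino arrays 11.18, 10.94 and 11.42. All morpholino arrays were above all control arrays. The difference was 0.47 ± 0.16 (SE), with a 95% interval of 0.09 to 0.85, or 1.39-fold higher (limma, adjusted p = 0.366), and 0.71 within the shared range.

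Targets beside the members were looked at for shared shifts. Within 100 kb there were 14 other targets near the first klf11a target (-0.35 to 0.71), 8 near the second (-0.14 to 0.36), 16 near klf3 (-0.36 to 0.24) and 3 near klf2a (-0.16 to 0.69). By the same limma test none of them was called in either direction. No other target lay that close to klf6a.

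The rest of the family, other Klf genes and the related Sp factors, which share the same zinc fingers, had 18 of 25 listed genes measured. With 1 target per gene, 0.729% of all named genes were called, 0.192% higher and 0.537% lower. In this list none passed in either direction by limma, and the median difference was 0.13. An unadjusted p under 0.05 was found for 5 of the 18, where the share over all targets was 10.3%. In both groups 2 of the 18 lay below the 25th percentile, so their signal was dim. The member nearest to passing was sp5l (ZV700S00005191), a target of Wnt signalling in zebrafish, whose control arrays read 10.24, 11.09 and 10.98 and whose morpholino arrays read 12.57, 12.43 and 13.40. The groups were widely separated, at 10.77 ± 0.47 and 12.80 ± 0.53 (SD, n = 3 each). Its difference was 2.03 ± 0.33 (SE), or 4.08-fold, with an adjusted p of 0.0796, and it passed in 4 of 8 other settings. With each of the 6 arrays left out in turn sp5l never passed (limma, adjusted p = 0.14 to 0.206). With the array range as a block its difference was 2.63. For klf10, known in mammals as a gene induced by TGF-beta, the control arrays read 6.36, 6.67 and 6.21 and the morpholino arrays 6.67, 7.10 and 7.92, a difference of 0.82 ± 0.32 (SE, adjusted p = 0.452). Morpholino array 3 was the highest of these, and the groups met at 6.67. Without that array the klf10 difference was 0.47, within the shared range 1.51, and 1.57 in the authors' deposited table.

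Of 16 listed cofactors through which Klf proteins act on chromatin, 7 were measured. None passed, none had an unadjusted p under 0.05 (limma), and the median difference was -0.03. The members with the largest differences were fhl3b, a LIM-domain gene, at -0.15 ± 0.17 (SE, adjusted p = 0.853), and hdac1, a histone deacetylase, at -0.13 ± 0.14 (SE, adjusted p = 0.834). Both intervals include 0, and the hdac1 difference was 0.06 with the array range as a block. Of the 7 genes, 2, fhl3b among them, lay below the 25th percentile in both groups, so their signal was dim.

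Cell types of the embryo, among them some in which Klf genes are known to act, were followed through their markers. Of 20 genes of the enveloping layer, the outer epithelium of the blastula, 16 were measured, 1 rose, 1 fell and 14 did not pass, with a median difference of 0.15. Over all named genes, 0.192% were called higher and 0.537% lower. For 6 of the 16 the unadjusted p (limma) was under 0.05, where the share over all targets was 10.3%. The riser was grhl1, a grainyhead factor of epidermis, which went from 10.82, 11.18 and 10.99 to 11.98, 11.90 and 11.95 (0.94 ± 0.12, SE, adjusted p = 0.0327). The faller was gata3, a zinc-finger factor of ectoderm, which went from 12.81, 13.54 and 13.70 to 11.40, 11.27 and 11.79 (-1.87 ± 0.26, SE, adjusted p = 0.0461). The gata3 target has only 3 probes, with a coefficient of variation of 0.709 to 1.035. The call of grhl1 held without control array 2 (adjusted p = 0.0454) and that of gata3 without control array 1 (0.0231), and each was lost without any other single array, at up to 0.155 and 0.18, and with the array range as a block. The grhl1 call was also lost with arrays centred on their median (0.0629) and in the authors' deposited table (0.0636), and the gata3 call without background correction (0.0655). Of the members that did not pass, evpla, an envoplakin gene, differed by 2.16 (adjusted p = 0.131), cldne by 0.64 and cldnf by 0.68, both claudin genes. Each had higher morpholino arrays with no overlap between groups, but these genes were named after their values were seen. Of the 16 genes measured, 4 did not overlap on the higher side and 1 on the lower. The shares over all targets were 7.36% and 7.97%. The value of evpla passed in the authors' table (0.0452) and with median centring (0.0432). The 7 keratin genes measured overlapped between groups, with differences from -0.62 for krt5 to 0.31 for krt4, and none passed. The mean log2 level of the list ran from 10.74 to 11.31 in the control and from 10.98 to 11.50 in the morpholino arrays.

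Markers of the yolk syncytial layer, the nuclei in the yolk below the cells, had 10 of 12 measured. Of these 3 fell, none rose and 7 did not pass, and the median difference was -0.37. For 5 of the 10 the unadjusted p (limma) was under 0.05, where the share over all targets was 10.3%. Over all named genes, 0.537% were called lower. The nuclear receptor gene hnf4a fell by 3.0 (SE 0.32, adjusted p = 0.0157), the zinc-finger gene gata6 fell by 2.37 (SE 0.27, adjusted p = 0.0206) and the homeobox gene mxtx2 fell by 2.69 (SE 0.37, adjusted p = 0.0444). Without single arrays, adjusted p ranged from 0.00969 to 0.0895 for hnf4a, from 0.00524 to 0.11 for gata6 and from 0.047 to 0.183 for mxtx2. The call of hnf4a held without control array 1 or morpholino array 2, that of gata6 without control array 1 and that of mxtx2 without morpholino array 2, and each was lost without any other. The morpholino means of hnf4a, 6.27, and gata6, 6.68, lay below the 25th percentile of targets, so their sizes understate the change and depend on the offset. At offset 16 the differences were -3.78 for hnf4a and -2.85 for gata6, and without background correction -2.43 and -1.96. In the authors' deposited table they were -3.63 and -3.71. The mxtx2 call was lost without background correction (0.0626), and all 3 calls with the array range as a block. The mean log2 level of this list was 7.80 to 8.28 in the control arrays and 7.04 to 7.17 in the morpholino arrays. It thus fell in the morpholino arrays, whereas klf15 rose. Of the 10 genes measured, 7 had a negative and 3 a positive difference, the highest being 0.30 for slc40a1. In both groups 2 of the 10 lay below the 25th percentile, so their signal was dim. The part of this list in the Klf values was not tested.

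For the hatching gland and primitive blood, the tissues in which klf17 is known to act later, all 16 listed genes were measured. None passed (limma) and 1 had an unadjusted p under 0.05, where the share over all targets was 10.3%. The median difference was -0.04, and the mean log2 level was 7.03 to 7.14 in both groups. The members with the largest differences were prdm1a, a repressor gene of the hatching gland (0.39 ± 0.20, SE, adjusted p = 0.589), and ctslb, a hatching gland protease gene (-0.37 ± 0.11, SE, adjusted p = 0.30). The prdm1a value was 0.20 without morpholino array 3 and 0.78 within the shared range, and that of ctslb was -0.99 in the authors' deposited table (limma, adjusted p = 0.0844). Of the 16 genes, 7, ctslb among them, lay below the 25th percentile in both groups, where the scale compresses differences. Reference genes, ribosomal and housekeeping, had 11 of 13 measured, none passed, none had an unadjusted p under 0.05, and their median difference was -0.08. Among them gapdh, of glycolysis, differed by -0.23 ± 0.13 and rpl13a, of the ribosome, by -0.21 ± 0.13 (SE).

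**Figure D3:**
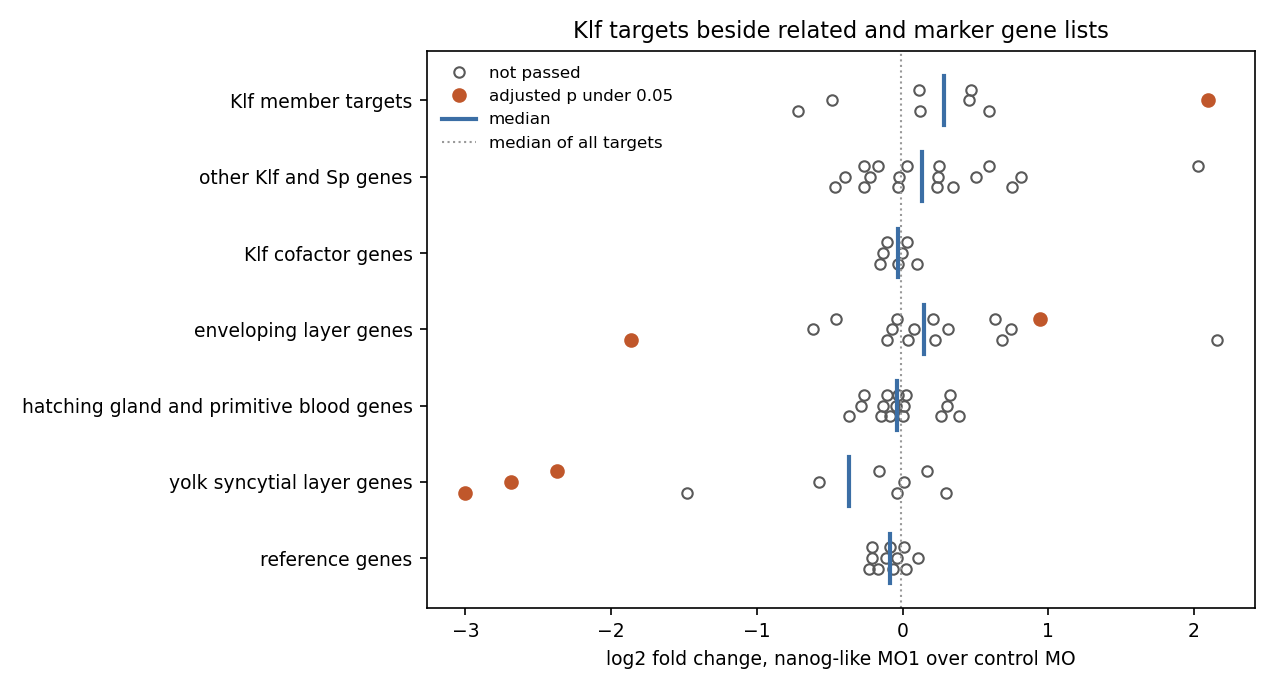
Log2 fold change, nanog-like MO1 over control MO (horizontal axis), of the Klf targets and of 1 target per gene in 6 lists (rows). Filled orange points have an adjusted p under 0.05, open points did not pass, blue bars are list medians, and the dotted line is the median of all targets. The filled points are klf15, grhl1 and gata3, and the 3 yolk syncytial layer genes on the left.

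The genes whose profile over the 6 arrays came nearest to that of klf15 were sought among 12459 named genes outside the family. Likeness was the root mean square difference between log2 profiles, each centred on its own mean, so the choice used the same arrays and is a description. Nearest was si:ch211-214c11.1 (OTTDART00000017964, chromosome 19, 12039938 to 12041219), at 0.178. It read 7.73, 7.45 and 7.70 in the control arrays and 9.53, 10.13 and 10.11 in the morpholino arrays. Next were tnfsf10l3, a tumour necrosis factor family gene, at 0.364, and g6pc1b, a glucose-6-phosphatase gene, at 0.374. Their own differences were 2.30 ± 0.19 for si:ch211-214c11.1, 1.74 ± 0.33 for tnfsf10l3 and 1.64 ± 0.22 for g6pc1b (SE). By limma the adjusted p was 0.00627, 0.124 and 0.0416 in that order, so tnfsf10l3 did not pass. With each of the 6 arrays left out, the call held in 6 fits for si:ch211-214c11.1 and in 1 for g6pc1b. The control mean of g6pc1b, 6.73, lay below the 25th percentile. Morpholino array 1 was the lowest of its group for all of these genes, as it was for klf15.

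**Figure D4:**
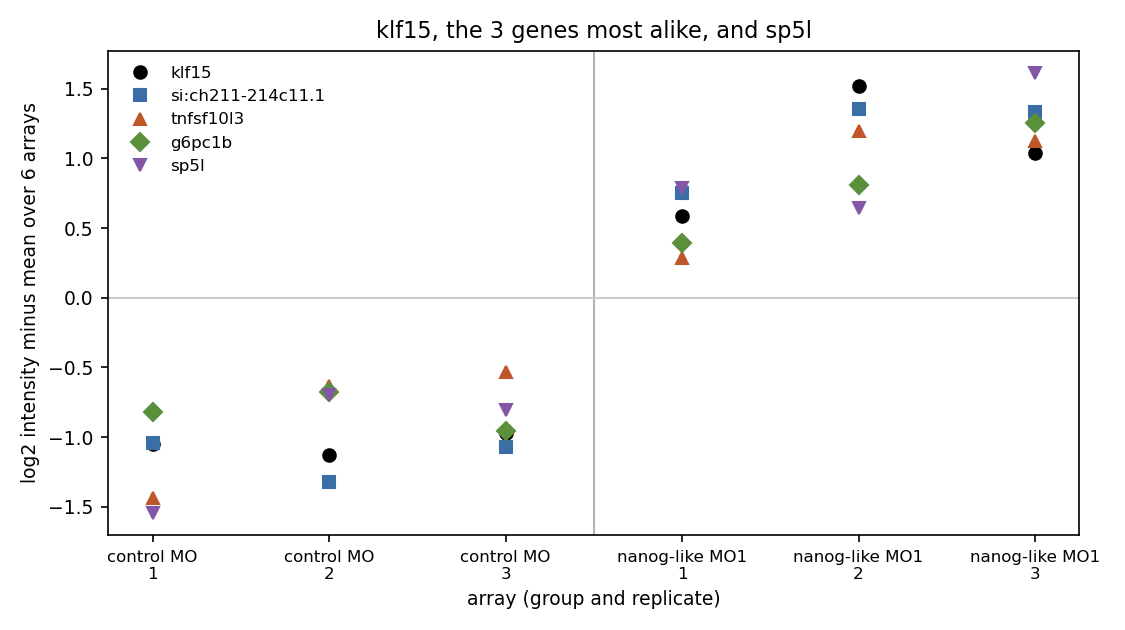
Log2 intensity minus the gene's mean over the 6 arrays (vertical axis) for klf15, the 3 genes nearest to it, and sp5l, by array (horizontal axis). All control points lie below 0 and all morpholino points above it; morpholino array 1 is the lowest morpholino array for klf15 and its 3 nearest genes, but not for sp5l.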

How the data were processed

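Per the labels' protocols, RNA was extracted with Trizol and labelled by the array maker. Per the file headers, the authors deposited 1 raw intensity per target and array (the mean of its perfect-match probes), with probe numbers and a coefficient of variation, a score without fixed range. They also deposited a table of linear intensities, which the submitters' processing notes credit to RMA without a version. Here the raw intensities were background-corrected (normexp, offset 50), quantile normalized between arrays and taken to log2. The offset understates differences of dim targets. limma 3.58.1 in R 4.3.3 was fitted with group as the only term over all 38489 targets (2-sided, Benjamini-Hochberg, threshold 0.05), after a test on simulated data. P-values set the group difference against the spread between these arrays, which limma draws towards that of all targets, and 3 arrays per group limit precision. Whether that spread is between embryos or between cultures is not settled. Names come from RefSeq's gene table of assembly GRCz12tu, coordinates from the array design (Zv7). A symbol shared by several genes was settled by chromosome and neighbouring genes. Neighbours were sought within 300 kb in the array design and among 5 genes on each side in the gene table. Lists covered other Klf and Sp genes, Klf cofactors, enveloping layer, hatching gland and primitive blood, yolk syncytial layer and reference genes, with 1 target per gene, the brightest. Members are named whatever their values. From each list the text names up to 4 passing genes, failing which the 2 of largest absolute difference, and for a passing member the 3 genes most alike. The genes evpla, cldne, cldnf, hnf1ba and the keratins were named after their values were seen. Members and lists were chosen with earlier results of these data known. Alternatives were no background correction, offset 16, centring on the median or on reference genes, the authors' table, targets below the 25th percentile left out, array range or replicate number as a block, and each array left out.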

Additional observations from a re-analysis of the deposited data

How the results depend on the processing

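All targets were called higher 99 and lower 150 times as reported. With arrays centred on the reference genes the counts were 147 higher and 135 lower, and the median of all targets moved from -0.01 to 0.12. The authors' table gave 163 higher. With the array range as a block, which leaves 1 morpholino array beside the controls, limma called 0 targets in each direction (3580 had an unadjusted p under 0.05), hence 0 for the Klf targets, the enveloping layer in both directions and the yolk syncytial layer. Same-numbered arrays deviated with correlations of -0.0133, -0.0967 and 0.171, and differently numbered ones with -0.299 to 0.259. With 3 arrays per group these values cannot decide whether same-numbered arrays were collected or processed together. The replicate block gave 46 higher and 88 lower in all, with 0 Klf targets (klf15 2.10, adjusted p = 0.0627) and 0 enveloping layer genes in either direction, and 2 yolk syncytial layer genes lower, hnf4a (0.0351) and hnf1ba (0.0423), while gata6 (0.0688) and mxtx2 (0.0928) were lost. Leaving out arrays gave 35 to 66 higher and 60 to 119 lower over all targets, 0 to 1 Klf targets higher, 0 to 1 enveloping layer genes higher and 0 to 1 lower, and 0 to 2 yolk syncytial layer genes lower. Of the other Klf and Sp genes 1, sp5l, was higher with median centring, reference centring, the authors' table or targets below the 25th percentile left out. Without background correction 0 enveloping layer genes and 2 yolk syncytial layer genes, hnf4a and gata6, were lower. With arrays left out the sign turned for klf3 (-0.124 to 0.276, negative without control array 1, at -0.0506, or morpholino array 3), klf4 (-0.0618 to 0.258, negative without control array 3) and fhl3b (-0.238 to 0.0107, positive without control array 3), and for hdac1 with the range block (0.0619). Where no construction is named, the cause was not tested. Dim targets such as klf4 have the least signal over background.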

Other observations

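A further 7 targets carry a human KLF gene in their description but no zebrafish name, and were assigned to no member. None passed (limma, lowest adjusted p = 0.517), and none had an unadjusted p under 0.05. The target TC264594 (chromosome 11, 37540059 to 37540695 in Zv7), described by both KLF15 and ELK4, read 7.24, 6.27 and 6.67 in the control arrays and 9.75, 7.10 and 7.85 in the morpholino arrays. Its difference of 1.51 ± 0.66 (SE, n = 3 per group) was led by morpholino array 1, and the groups overlapped. It has 7 probes, with a coefficient of variation of 0.061 to 2.191. The target ZV700S00006745 on chromosome 9, described by KLF2, read 12.23, 12.54 and 12.24 against 12.37, 12.25 and 12.58, with a difference of 0.06 (limma, adjusted p = 0.941). The other 5 differed by -0.41 to 0.43. Among them, a target whose position overlaps that of TC264594 read 7.07, 6.46 and 6.54 in the control arrays. Its morpholino arrays read 6.91, 6.95 and 7.5, a difference of 0.43, and array 1 was not raised there.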
